A study of Mus musculus with 66 samples.

Results

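The genes described here are 5 genes of antigen presentation by class II molecules of the mouse major histocompatibility complex: H2-Aa, H2-Ab1, H2-Eb1, H2-DMa and Cd74. They were chosen by name, and each was read from the probe set annotated to it alone, with the brightest probe set by mean over 54 arrays where a gene had several. All 5 were present, with 6 such probe sets, among 8251 genes with a probe set of their own and 12488 probe sets on the array. The samples were gastrocnemius, a calf muscle, from mice left untreated or injected with cardiotoxin, a toxin of cobra venom that kills muscle fibres but spares the stem cells that rebuild them. On the later of 2 versions of an Affymetrix murine array, called Av2 in the labels, 54 arrays held untreated controls and 26 times from 12 h to 40 d after injection, 2 arrays in each of 27 groups. The earlier version, called A, held 12 arrays in 6 groups of 2, namely controls and 5 times (12 h and 1, 2, 4 and 10 d). The labels give the controls as 8 weeks old, and state for 10 arrays on A that 100 ul of cardiotoxin at 10 uM was injected. No strain, sex or genotype is given in the labels. Sample codes of the controls and of 12 h recur on both versions. On Av2, the 2 arrays carry the same code number in 9 of the 27 groups, with the letters LL and RL. These are the groups of 1, 4, 4.5, 5, 5.5, 11, 12, 13 and 14 d. Whether the arrays of a pair stand for different mice is not labelled, and p-values therefore cover no more than array-to-array spread, which may be technical. Every test took each array as a separate unit.

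Class II molecules are pairs of an alpha and a beta chain that carry peptides from engulfed material to the cell surface, where helper T cells read them. Cd74, the invariant chain, holds the new pair and blocks its groove until proteases such as cathepsin S cut it away, and H2-DM then exchanges the last piece of it for a peptide. The set is made by dendritic cells, B cells and activated macrophages, largely under the coactivator Ciita, and muscle fibres at rest make little of it. H2-Aa and H2-Ab1 encode the alpha and beta chains of the I-A molecule, H2-Eb1 the beta chain of the I-E molecule, and H2-DMa the alpha chain of H2-DM.

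Class II genes are known for a shared control region before the start site, the X box and the Y box. The promoters of H2-Aa and H2-Eb1 are shown because they held letters of both boxes. Any link between these letters and the courses of the genes was not tested. Each window runs from 250 bases before to 50 bases after the start and was taken from RefSeq on GRCm38.p6, H2-Aa on the minus strand at chr17:34287774-34288073 and H2-Eb1 on the plus strand at chr17:34305617-34305916. The capitals mark GCAAC, letters found in the X box, and ATTGG, letters of the Y box (the reverse of the CCAAT box).
H2-Aa: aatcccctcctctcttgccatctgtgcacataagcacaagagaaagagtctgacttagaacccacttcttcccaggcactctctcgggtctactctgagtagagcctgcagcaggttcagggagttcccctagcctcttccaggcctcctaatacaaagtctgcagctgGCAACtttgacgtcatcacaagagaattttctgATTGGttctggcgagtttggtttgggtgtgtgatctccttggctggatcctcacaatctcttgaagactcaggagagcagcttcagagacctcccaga
H2-Eb1: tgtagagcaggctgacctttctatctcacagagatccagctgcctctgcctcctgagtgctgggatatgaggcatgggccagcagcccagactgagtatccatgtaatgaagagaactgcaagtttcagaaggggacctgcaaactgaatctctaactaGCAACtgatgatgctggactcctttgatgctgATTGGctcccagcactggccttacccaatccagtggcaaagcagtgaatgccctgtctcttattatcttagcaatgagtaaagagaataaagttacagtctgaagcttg
In H2-Aa the 2 motifs began 81 and 48 bases before the start, and in H2-Eb1 they began 91 and 59 bases before it. Among 32851 mouse promoter windows of the same length, searched on both strands, 35.2% held GCAAC, 37.4% held ATTGG, and 1.39% held ATTGG beginning 20 to 50 bases after GCAAC on the same strand. This spacing was set with these sequences in view, and the motifs do not overlap. The listed windows of other class II genes were searched on the strand of the gene only, unlike the share above. Those of H2-Oa, H2-Ob and H2-Eb2 also held the pair, and those of H2-DMb1, H2-DMb2 and both windows of H2-DMa did not. A match describes the letters only. The promoters of H2-Ab1 and Cd74 were not used here.

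Values are intensities as the authors deposited them, and log2 changes are differences between means of log2 intensities after values under a floor of 64.7 had been raised to it. The share of probe sets above that floor ran from 76.4% to 83.4% over the Av2 arrays. Muscle fibre genes marked the tissue as labelled, with Ckm, the muscle creatine kinase, at 17245 and 19675 in the controls. Some arrays stood apart in the manufacturer's quality probe sets, read as the intensity at the 3' end over that at the 5' end of a transcript. The b-actin ratio was 0.018 to 0.233 on 8 arrays (12 h replicate 2, both arrays of 1, 2 and 4 d, and 5 d replicate 1), and at least 0.571 on the others. The Gapdh ratio was 0.044 to 0.162 on 9 arrays (9.5 d replicate 2, 11 d replicate 1, 12 d replicate 2, 14 d replicate 2, 16 d replicate 1, 20 d replicate 2, both of 30 d and 40 d replicate 1), and at least 0.314 on the others. In addition, B cell genes were high on 12 h replicate 2. Where a call of the 5 genes changed without these arrays, the value or the count of genes without them is given. Calls of genes in the other lists were not repeated without these arrays.

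On their brightest probe sets, all 5 genes rose in the days after injection, stood at a plateau from about 5 to 14 d, and were still above the controls at 20 to 40 d. H2-Aa stood at 2278 and 1312 on the control arrays. It stood at 1893 and 8595 at 12 h, at 1677 and 2249 at 1 d, and at 3080 and 2785 at 2 d. Apart from the second 12 h array, the gene therefore left the control range at 2 d. In the 12 arrays of 5 to 7.5 d the lowest, median and highest values of H2-Aa were 9515, 10826 and 14148, and in the 10 arrays of 8 to 10 d they were 9346, 10708 and 19915. Every array of these windows lay above both controls. In the 10 arrays of 11 to 16 d the values were 6431, 12134 and 14153, and in the 6 arrays of 20 to 40 d they were 2955, 7090 and 8052. The late arrays overlap with those of 16 d and with no control.

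H2-Ab1, the partner chain of H2-Aa, stood at 750 and 533 in the controls, at 704.5 and 2194 at 12 h, at 701 and 734 at 1 d and at 1324 and 892.5 at 2 d. It ranged from 1970 to 3324 at 5 to 7.5 d (median 2665), from 1718 to 5379 at 8 to 10 d (median 2576), from 1683 to 4752 at 11 to 16 d (median 2974) and from 956 to 1807 at 20 to 40 d (median 1606). H2-Eb1 stood at 1776 and 1589 in the controls, at 2254 and 5172.5 at 12 h, at 2149 and 1339 at 1 d, at 1824 and 1615 at 2 d and at 1825 and 2034 at 3 d. Both 12 h arrays lay above both controls for this gene, the arrays of 1 and 2 d overlapped with the controls, and from 3 d on every array lay above them, with 2894 and 3194 at 3.5 d. H2-Eb1 then ranged from 4014 to 7000 at 5 to 7.5 d (median 5605), from 4584 to 11132 at 8 to 10 d (median 5412), from 3162 to 9426 at 11 to 16 d (median 6777) and from 2419 to 3920 at 20 to 40 d (median 3219). The highest array of H2-Aa, H2-Ab1 and H2-Eb1 alike was 9 d replicate 1.

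Cd74, the invariant chain, stood at 5187 and 2834 in the controls, at 4797 and 23919 at 12 h, at 6438 and 7391 at 1 d and at 10702 and 10184 at 2 d. Both arrays of 1 d already lay above both controls. It ranged from 11719 to 26798 at 5 to 7.5 d (median 20169), from 13735 to 32822 at 8 to 10 d (median 20281), from 12584 to 24543 at 11 to 16 d (median 17731) and from 10920 to 17457 at 20 to 40 d (median 14431). Its highest group was 9 d, with 30245 and 32822, and no array of the other groups reached these values.

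H2-DMa, the peptide exchanger, had the earliest course of the 5 on Av2, as read from its probe set with the higher mean over all arrays. It stood at 592 and 282 in the controls and at 243 and 3527 at 12 h, and then at 1670 and 2195 at 1 d and at 3054 and 3069 at 2 d. It therefore stood at its later level by 2 d, while H2-Aa, H2-Ab1 and H2-Eb1 were still close to their controls. Its values were 2856 to 4023 at 5 to 7.5 d (median 3275), 2831 to 3676 at 8 to 10 d (median 3148), 1461 to 3731 at 11 to 16 d (median 3064) and 666 to 1776 at 20 to 40 d (median 1414). The arrays on which H2-DMa was high before 3 d (12 h replicate 2 and the 4 arrays of 1 and 2 d) are the same 5 that were low in the b-actin ratio, and the part of this in the result was not tested. Without the arrays low in this ratio, the log2 change from the controls at 12 h to 2 d was -0.75, from 12 h replicate 1 alone. A second probe set of H2-DMa stood at 888 and 171 in the controls and at 138 to 794 after injection. Its median after injection was 333, against 3085 for the probe set used. In the controls it was not dimmer by mean, at 530 against 437. The choice by mean over all Av2 arrays therefore rested mostly on arrays after injection, where the probe set used was high. On none of the 52 arrays after injection did the second probe set exceed both controls. With the mean of both probe sets, H2-DMa no longer passed over the time course. The earlier version, described below, did not show the early rise as clearly. There the log2 change at 2 d was 0.23 for H2-DMa, 1.34 for Cd74, 1.27 for H2-Aa, 0.75 for H2-Ab1 and 0.55 for H2-Eb1. None of these passed, and the controls of H2-DMa and H2-Ab1 lay under the floor of that version.

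**Figure D1:**
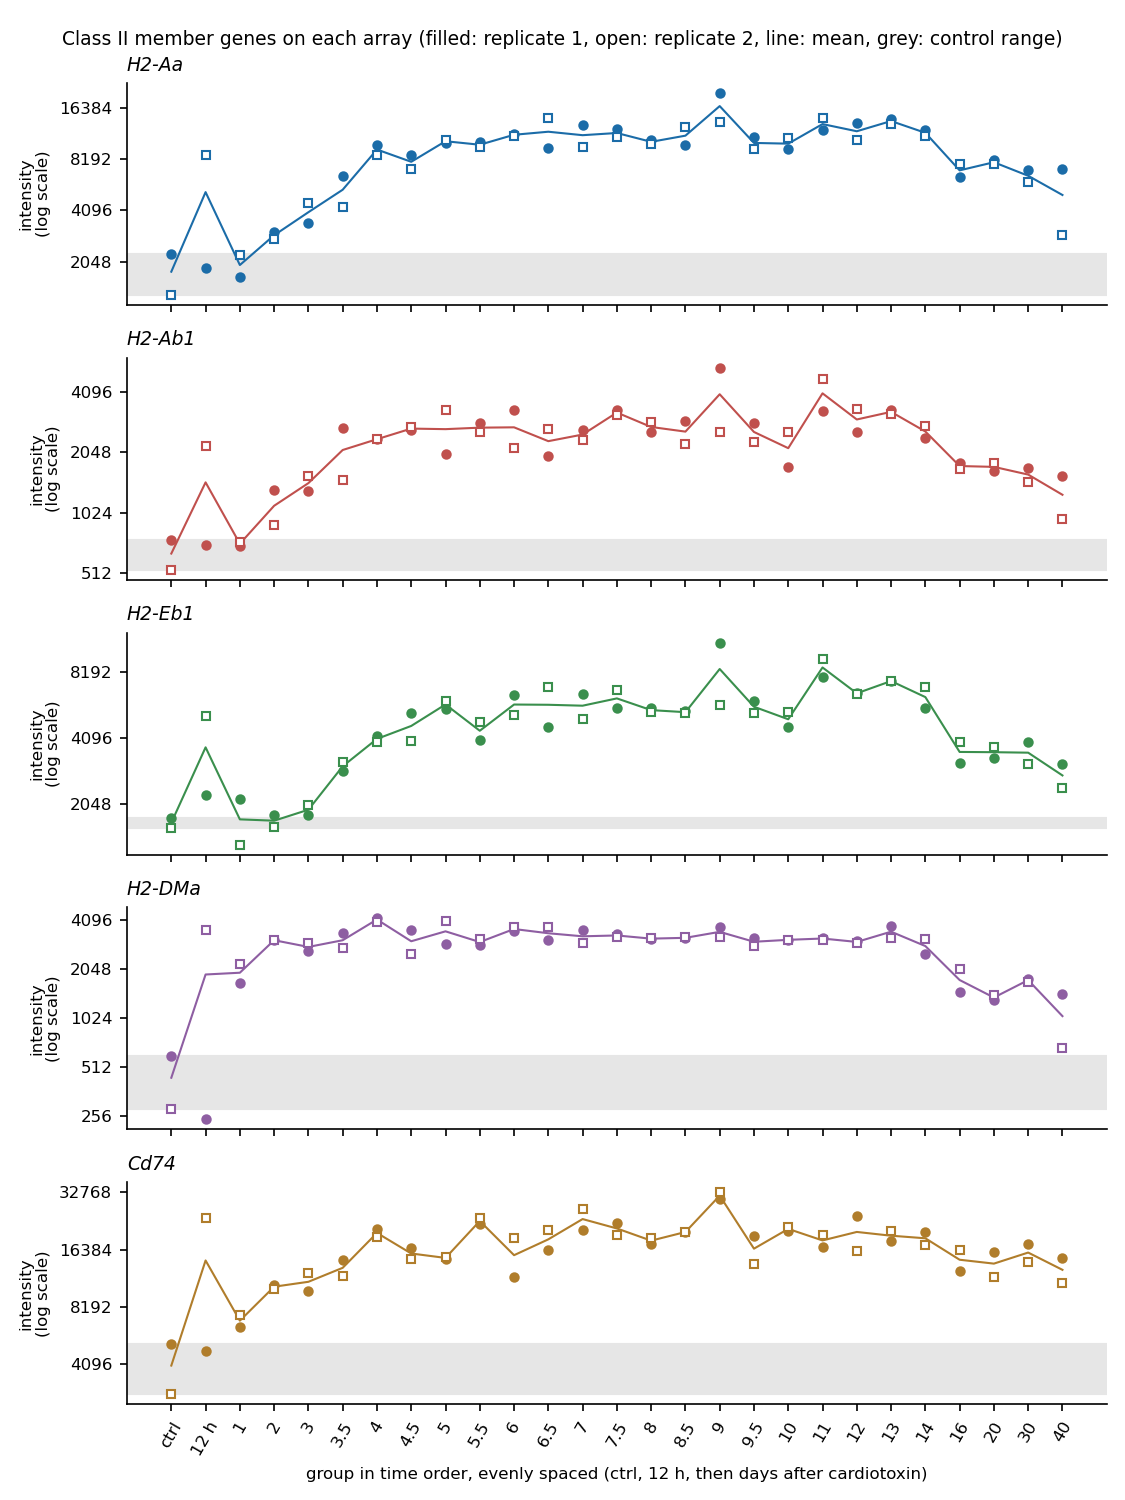
Intensity (log scale) of the 5 genes on every array of the later version, with filled points for replicate 1, open squares for replicate 2, a line through the means and the range of the 2 controls in grey, over groups in time order at even spacing. At 12 h replicate 2 stands high for every gene and replicate 1 near the controls, and all 5 step down between 14 and 16 d.

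The means of the 27 groups were set against each other as a test across all groups. Over the time course 48.7% of the 11997 tested probe sets changed (F test in limma, adjusted p under 0.05), as did 5 of the 5 genes, with adjusted p = 3.1e-07 for H2-Aa, 1.1e-05 for H2-Ab1, 2.1e-08 for H2-Eb1, 0.0016 for H2-DMa and 1.5e-04 for Cd74. For H2-Aa and H2-Ab1, 49 of the 52 arrays after injection lay above both controls, for H2-Eb1 50, and for H2-DMa and Cd74 51. The highest group mean of H2-Aa was 16713 ± 4528 (SD, n = 2) at 9 d, which is 9.31-fold that of the controls (1795 ± 683). That of H2-Ab1 was 4019 ± 1036 at 11 d (6.27-fold), that of H2-Eb1 8585 ± 1190 at 11 d (5.10-fold), that of Cd74 31533 ± 1822 at 9 d (7.86-fold) and that of H2-DMa 4104 ± 165 at 4 d (9.39-fold). Each of these means rests on 2 arrays, and the place of the highest mean was not tested. For Cd74 alone, both arrays of the highest group lay above every array of the other groups. For the others the exact place carries little weight.

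The 6 windows after injection were then compared with the controls, and they share the same 2 control arrays. At 12 h to 2 d (n = 6), 2 of the 5 genes rose, where 17.7% of all probe sets did: H2-DMa by 2.10 log2 (SE 0.46, adjusted p = 4.5e-04) and Cd74 by 1.26 (SE 0.32, adjusted p = 0.0019). The changes of H2-Aa (0.72), H2-Ab1 (0.65) and H2-Eb1 (0.36) did not pass. This count was 0 without control replicate 2 and 0 without the arrays low in the b-actin ratio, which leaves 12 h replicate 1 alone in the window, and 5 without 12 h replicate 1. At 3 to 4.5 d (n = 8) 5 of 5 rose, against 22.2% of all probe sets, with log2 changes of 1.86 for H2-Aa (SE 0.32), 1.71 for H2-Ab1 (SE 0.30), 0.94 for H2-Eb1 (SE 0.23), 2.96 for H2-DMa (SE 0.45) and 1.93 for Cd74 (SE 0.31). The adjusted p-values from limma ran from 2.1e-06 for H2-DMa to 9.9e-04 for H2-Eb1.

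The 5 genes were also higher in each later window. At 5 to 7.5 d (n = 12), where 19% of all probe sets rose, the mean of H2-Aa was 11076 ± 1453 (SD), which is 6.17-fold the control mean (log2 change 2.67, SE 0.31, adjusted p = 2.9e-08 in limma). At 8 to 10 d (n = 10), where 16.9% rose, the changes were 2.72 for H2-Aa, 2.09 for H2-Ab1, 1.79 for H2-Eb1, 2.95 for H2-DMa and 2.45 for Cd74. At 11 to 16 d (n = 10), where 13.9% rose, they lay between 1.88 for H2-Eb1 and 2.75 for H2-DMa. At 20 to 40 d (n = 6) 5 of 5 were still higher, when 5.01% of all probe sets were. The levels then were 6474 ± 1854 for H2-Aa (3.61-fold, adjusted p = 4.8e-04 in limma), 1524 ± 303 for H2-Ab1 (2.38-fold, adjusted p = 0.0098), 3268 ± 532 for H2-Eb1 (1.94-fold, adjusted p = 0.010), 1382 ± 395 for H2-DMa (3.16-fold, adjusted p = 0.021) and 14146 ± 2476 for Cd74 (3.53-fold, adjusted p = 2.7e-04). Every one of the 6 late arrays lay above both controls for each gene. Without control replicate 2, the lower of the controls for all 5 genes, this late count was 1, and without the arrays low in the Gapdh ratio, which leaves 20 d replicate 1 and 40 d replicate 2, it was 2. With the mean of its probe sets, the late change of H2-DMa was 0.997 and did not pass (adjusted p = 0.151 in limma). The median change of the 5 genes was 0.72, 1.86, 2.31, 2.45, 2.23 and 1.69 over the 6 windows, while that of all probe sets tested stayed between 0 and 0.03.

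**Figure D2:**
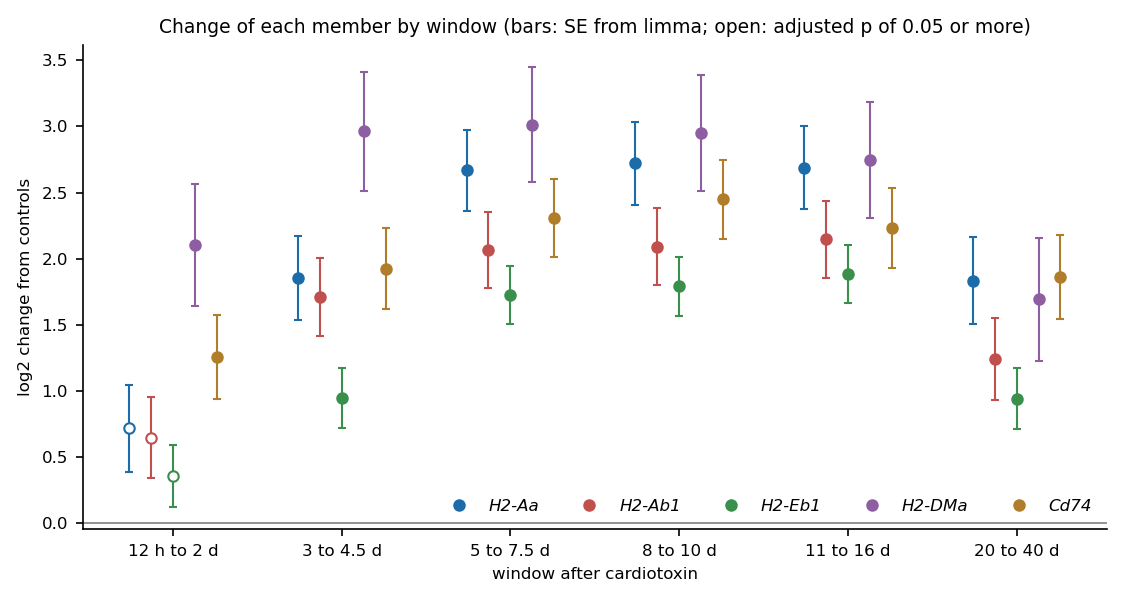
Log2 change from the controls of each gene in the 6 windows, with the standard error from limma as bars, and open points where the adjusted p was 0.05 or more. H2-DMa leads at 12 h to 2 d (2.10) and H2-Eb1 trails at 3 to 4.5 d (0.94), and all 5 stand between 0.94 and 1.86 at 20 to 40 d.

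The same fit set each window against the one before it. From 12 h to 2 d to 3 to 4.5 d, 5 of 5 rose, against 16.9% of all probe sets, by 0.59 (H2-Eb1) to 1.14 log2 (H2-Aa). This count was 3 without 12 h replicate 1, when H2-DMa (0.22) and Cd74 (0.28) did not pass. The change of H2-DMa (0.86) was the least stable: it did not pass without the arrays low in the Gapdh ratio (0.86), nor, at 0.79 to 0.86, without any one of 1 d replicate 1, both arrays of 2 d, 3 d replicate 2 and replicate 1 of 3.5, 4 and 4.5 d. It was 0.50 and did not pass with the mean of its probe sets, and without the arrays low in the b-actin ratio it was 3.59. Without these last arrays H2-Eb1 (0.41) did not pass and Cd74 rose by 1.45. From 3 to 4.5 d to 5 to 7.5 d, 2 of 5 rose further, against 9.16%: H2-Aa by 0.81 (SE 0.18, adjusted p = 0.0015) and H2-Eb1 by 0.78 (SE 0.13, adjusted p = 4.4e-05), while the changes of H2-Ab1 (0.36), Cd74 (0.38) and H2-DMa (0.05) did not pass. Without the arrays low in the b-actin ratio, 4 of 5 rose at this step. In the next step, to 8 to 10 d, none of the 5 rose or fell by limma, where 1.03% of all probe sets rose and 1.42% fell, and none had an unadjusted p under 0.05. The same held for the step to 11 to 16 d, where 3.36% fell. From 11 to 16 d to 20 to 40 d, 4 of 5 fell, against 11.3% of all probe sets: H2-Aa by 0.85 log2 (SE 0.21, adjusted p = 0.0030), H2-Ab1 by 0.91 (SE 0.19, adjusted p = 8.5e-04), H2-Eb1 by 0.94 (SE 0.15, adjusted p = 1.7e-05) and H2-DMa by 1.05 (SE 0.29, adjusted p = 0.0089). Cd74 changed by -0.37 (SE 0.20), which did not pass (adjusted p = 0.228). The fall of H2-DMa did not pass without the arrays low in the Gapdh ratio (-1.57), without 40 d replicate 2 (-0.87) or with the mean of its probe sets (-0.43), and that of Cd74 passed without either 12 h array at the same size.

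The decline lay between 14 and 16 d, and was therefore also set out as 16 and 20 d against 12 to 14 d, a comparison chosen after the values were seen. H2-Eb1 stood at 5600 and 6983 at 14 d and at 3162 and 3914 at 16 d, and H2-DMa at 2520.5 and 3117 and then at 1461 and 2025.5. For H2-Aa, H2-Ab1, H2-Eb1 and H2-DMa, all 4 arrays of 16 and 20 d lay below all 6 of 12 to 14 d, and for Cd74 3 of 4 did. All 6 arrays of 12 to 14 d come from groups whose arrays share a code number. In limma 2 of 5 fell, against 7.88% of all probe sets: H2-Eb1 by 0.93 log2 (SE 0.18, adjusted p = 7.0e-04) and H2-Ab1 by 0.75 (SE 0.24, adjusted p = 0.039). The values of H2-DMa (-1.004), H2-Aa (-0.74) and Cd74 (-0.46) did not pass. The 12 h arrays, which differ most, enter the spread shared by all groups: without either of them 5 of 5 fell, with the same sizes. The count was 1 without any one of 12 d replicate 2 and the arrays of 13, 14, 16 and 20 d. Without the arrays low in the Gapdh ratio, which removes 4 of the 10 arrays compared here, it was 0, with changes of -0.85 for H2-Eb1 and -0.71 for H2-Ab1.

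The 12 h arrays are described singly. On replicate 1 all 5 genes stood below the higher control, apart from H2-Eb1 at 2254. On replicate 2 each was higher than on replicate 1, by 14.5-fold for H2-DMa, 4.99-fold for Cd74, 4.54-fold for H2-Aa, 3.11-fold for H2-Ab1 and 2.29-fold for H2-Eb1. A difference over 1 log2 in this direction was seen in 12.7% of all probe sets. Of the 20 B and plasma cell genes tested, 20 were higher on replicate 2, with a median difference of 1.90 log2 and 0 as the median of all probe sets. Cd79a and Cd79b, the signalling chains of the B cell receptor, went from 362 to 3359 and from 188 to 2334, and Ms4a1, which encodes CD20, from 452.5 to 2529. The summed intensity of these 20 genes was 7987 to 8740 in the controls and at most 13010 from 3 d on, against 28269 on this array. The 10 largest differences between the 12 h arrays included H2-DMa itself, the immunoglobulin genes Igkv6-23 and Ighv14-2, the B cell attractant Cxcl13, Fcer2a, Cd79b, and Glycam1, a gene of lymph node vessels. Other lists moved as well. Of the macrophage genes 19 of 21 were higher (median 1.10 log2), of the T and natural killer cell genes 16 of 20 (median 1.03), of class I presentation genes 13 of 14 (median 1.05) and of the dendritic cell genes 10 of 15 (median 0.67). Cd68, a macrophage gene, stood at 1501 on replicate 1 and 4181 on replicate 2. Adgre1, a macrophage gene that encodes F4/80, was among the few that went the other way, at 356 and 170. In bulk samples, more cells of a type and more RNA per cell cannot be told apart, and the part of these cell types in the class II values of this array was not tested.

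**Figure D3:**
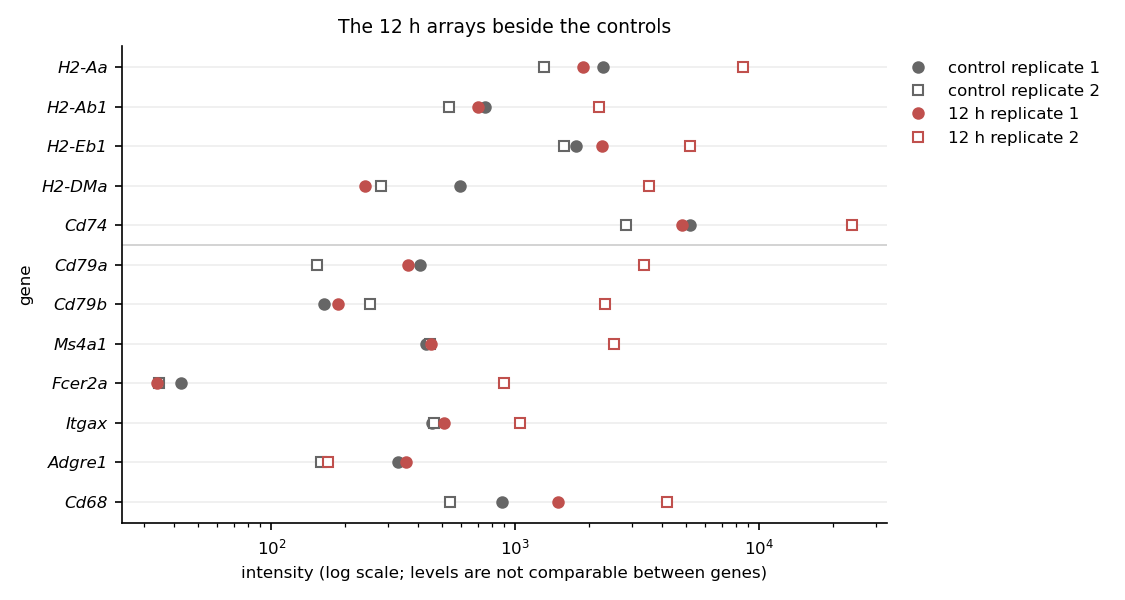
Intensity (log scale) of the 5 genes, above the line, and of 4 B cell genes, a dendritic cell gene (Itgax) and 2 macrophage genes on the control arrays (grey) and the 12 h arrays (red), replicate 2 as open squares. The 5 genes and the 4 B cell genes stand furthest to the right on 12 h replicate 2. So do Cd68 (4181, against 1501 on replicate 1) and Itgax (1046 against 508), while Adgre1 stands lower (170 against 356).

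The earlier array version held the same 12 h and control codes. There H2-Aa stood at 1769 and 7827 at 12 h, H2-Ab1 at 233 and 2458, H2-Eb1 at 1202 and 5116 and Cd74 at 5291 and 20745. The array with the same sample code as 12 h replicate 2 on Av2 was thus high for 4 of the 5. H2-DMa, at 148 and 389, lay under the floor of 646.8 on both 12 h arrays of A. The b-actin ratio of 12 h replicate 2 on A was 0.875, and none of the 12 arrays on A was under 0.768. At 1 d on A, in samples with other codes than on Av2, H2-DMa stood at -115 and 185. Its values were 581 and 884 at 2 d, rose to 1545 and 1479 at 4 d, and were 679 and 651 for 10 d. At 1 d on A both values thus lay under the floor, while those of 2 d lay near those of 10 d. Its controls on A were -478 and -944, so no fold can be given, and whether 2 d passed rested on the floor, since it did so with the floor halved. In limma, 3 of 5 genes changed over the 6 groups on A (H2-Aa, H2-DMa and Cd74), where 51.2% of the 4742 probe sets tested did. At 4 d 4 of 5 were higher (H2-Aa, H2-Ab1, H2-DMa and Cd74), against 22.9%, with H2-Aa at 9022 and 8305 against 2271 and 539 in the controls. At 10 d 4 of 5 were higher (all but H2-DMa), against 13.3%. These counts moved with single arrays. The count over the 6 groups was 1 without control replicate 2 or without any array of 1, 2, 4 or 10 d, and 5 without either 12 h array. The count at 4 d was 1 without control replicate 2 or either 4 d array, and that at 10 d was 0 without control replicate 2 or either 10 d array.

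The balance between the genes was compared within each array, as the difference of their log2 intensities, by a two-sided exact permutation test over arrays for 10 pairs and 2 steps, with Benjamini-Hochberg adjustment over the 20 tests. From 3 to 4.5 d to 8 to 10 d (8 against 10 arrays), 6 of 10 pairs differed. H2-Aa gained on H2-DMa by 0.88 log2, from 0.97 ± 0.39 (SD) to 1.85 ± 0.25 (exact test, adjusted p = 9.1e-04), and H2-Eb1 gained on H2-DMa by 0.86 (adjusted p = 0.0014). H2-DMa lost 0.54 against Cd74, H2-Aa gained 0.49 on H2-Ab1 and 0.34 on Cd74, and H2-Ab1 lost 0.47 against H2-Eb1. The difference of H2-Aa and H2-Eb1, chains of different molecules, moved by 0.02 (adjusted p = 0.906). From 8 to 10 d to 20 to 40 d, 1 of 10 pairs differed, with H2-DMa losing a further 0.67 against Cd74 (exact test, adjusted p = 0.0067). Without the arrays low in the Gapdh ratio this difference was -1.04 and did not pass. After quantile normalization 14 of the 20 tests passed in place of 7.

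A further comparison, of 1 and 2 d with 8 to 10 d, was chosen after the values were seen. The difference of H2-Aa from H2-DMa was 0.01 and 0.03 at 1 d, 0.01 and -0.14 at 2 d, and 1.94 and 2.22 in the controls. H2-Aa gained 1.87 log2 on H2-DMa from there to 8 to 10 d, and every one of the 10 later arrays lay above all 4 early ones. This, like 6 other pairs of 10, gave the smallest p the 1001 arrangements allow (two-sided exact permutation test, p = 0.0020, adjusted p = 0.0029). All 4 arrays of 1 and 2 d were among those low in the b-actin ratio, and the part of this in the result was not tested.

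**Figure D4:**
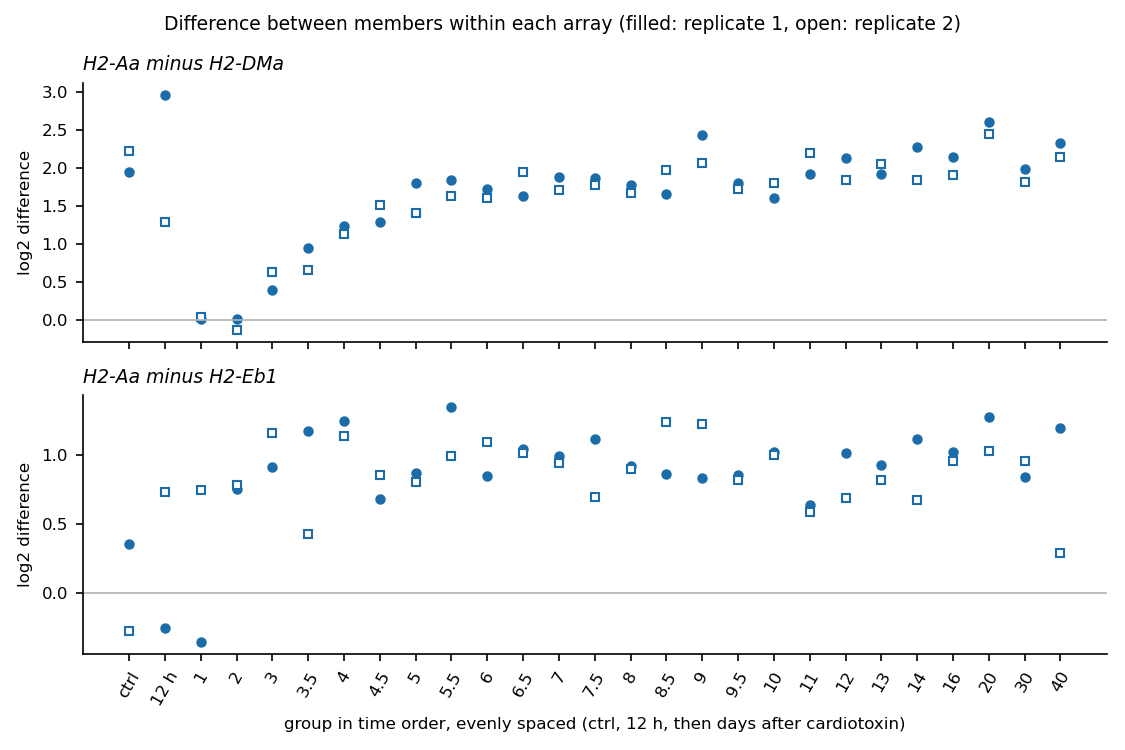
Difference of log2 intensities within each array for H2-Aa minus H2-DMa and H2-Aa minus H2-Eb1 (filled points replicate 1, open squares replicate 2), over groups in time order at even spacing. The first drops to about 0 at 1 and 2 d and stands at 1.60 to 2.61 from 5 d on except on 5 d replicate 2 (1.40), while the second lies between 0.29 and 1.35 from 3 d on.

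Macrophages are the main white blood cells of regenerating muscle, so the 5 genes were set beside 21 monocyte and macrophage genes. Of these, 19 rose in each window from 12 h to 2 d to 8 to 10 d, 18 at 11 to 16 d and 13 at 20 to 40 d, against 17.7%, 22.2%, 19%, 16.9%, 13.9% and 5.01% of all probe sets. Their score, the mean log2 difference from the controls, was 3.11 to 3.80 on the arrays of 1 and 2 d and 3.01 to 3.62 at 3 to 4.5 d, where that of the 5 genes was 0.65 to 1.28 and 1.24 to 2.31. The arrays of 1 and 2 d were all low in the b-actin ratio, and the part of this in the scores was not tested. At 8 to 10 d the 2 scores overlapped, with 2.33 to 3.27 for the macrophage genes and 2.12 to 3.10 for the 5 genes. From 3 to 4.5 d to 5 to 7.5 d, 15 of the 21 macrophage genes fell, against 12% of all probe sets, and none of the 5 genes did. Adgre1 went from a median of 2618 to one of 1395 at 8 to 10 d, and Csf1r, the receptor for macrophage growth factor, from 11057 to 5619.

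Pairs of a class II gene and a macrophage gene were compared within arrays between 3 to 4.5 d and 8 to 10 d. This comparison was added after seeing the data. In a two-sided exact permutation test 99 of 105 pairs differed, all with a gain of the class II gene. The tests reuse the same 8 and 10 arrays and the same genes, so they are not separate results. The fall of macrophage genes given above enters each difference. How many of all other genes would gain in the same way was not counted. H2-Aa gained on 21 of 21 macrophage genes (median 1.66 log2), as did H2-Eb1 (median 1.64), and every test of both passed. Cd74 gained on 21 (20 passed, median 1.32), H2-Ab1 on 21 (19 passed, median 1.17) and H2-DMa on 19 (18 passed, median 0.78). The difference of H2-Aa from Adgre1 was 2.78 and 3.04 in the controls, 0.30 and 0.39 on the arrays of 2 d, and 3.94 and 3.92 on those of 40 d. The count of 99 was unchanged without the arrays low in either 3' ratio. The score of the B and plasma cell genes lay between -0.28 and 0.60 on every array except 12 h replicate 2 (1.80), but its genes went both ways. At 3 to 4.5 d 4 of the 20 rose and 4 fell, and at 8 to 10 d 3 rose and 2 fell, against 22.2% and 18.5%, and 16.9% and 13.8%, of all probe sets. Cd72, a B cell surface protein, rose by 2.85 log2 at 8 to 10 d, and Cd37 and Blnk rose in 5 windows, while Ighm, the heavy chain of IgM, fell in 5. Of 15 dendritic cell genes tested, 4 rose at 3 to 4.5 d and 5 at 8 to 10 d, and 1 fell in each, to be read against the same shares. Cst3, which encodes cystatin C, fell in 5 windows. Among those that rose was Itgax, which encodes CD11c, with medians of 1130 at 3 to 4.5 d and 1489 at 8 to 10 d against 454 and 465 in the controls. The part of each cell type in the course of the class II genes was not tested.

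**Figure D5:**
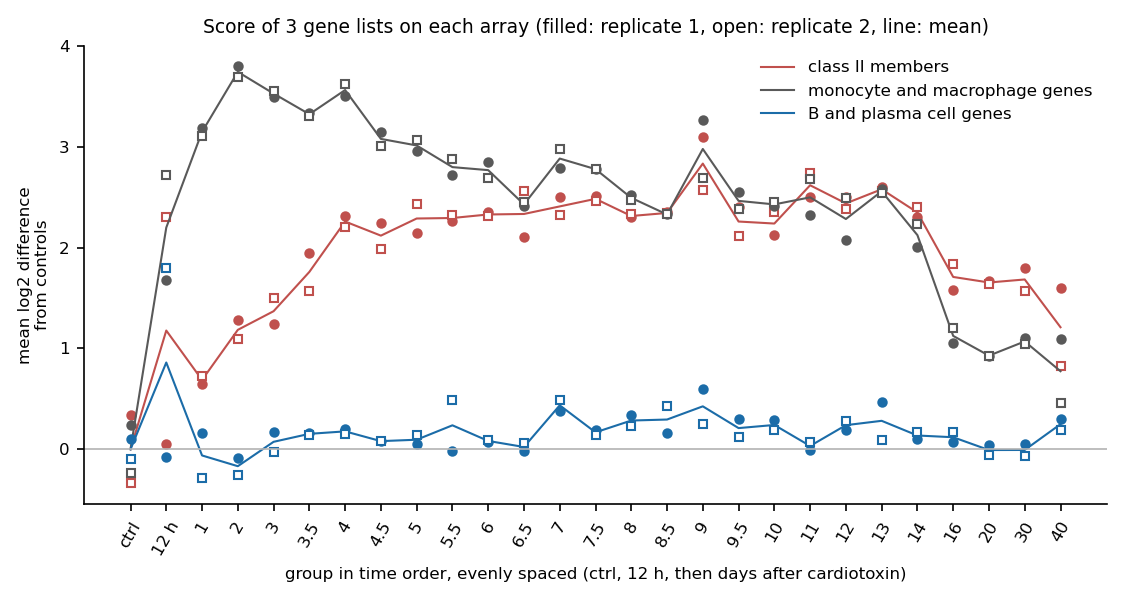
Score (mean log2 difference from the controls) of the 5 class II genes, 21 macrophage genes and 20 B and plasma cell genes on every array of the later version, with filled points for replicate 1, open squares for replicate 2 and lines through the means. The macrophage score peaks at 2 d (3.80 and 3.69) and the class II score reaches about 2.3 from 4 d, and only on 12 h replicate 2 is the B cell score high (1.80).

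Other genes of the class II pathway were taken from a list of 27, of which 23 were measured. In the 6 windows 10, 10, 10, 9, 9 and 5 of them rose, against the shares of all probe sets given above, and 2, 3, 3, 2, 2 and 0 fell, against 18.5%, 18.5%, 16.1%, 13.8%, 10.2% and 2.12% of all probe sets. Their median change lay between 0.35 and 0.77 log2. The largest rises were mostly of enzymes that prepare peptides. Ifi30, which reduces disulfide bonds in endosomes, stood at 160 and 217 in the controls and at a median of 5935 at 3 to 4.5 d (log2 change 4.92, adjusted p = 1.9e-15). Ctss, which encodes cathepsin S, the protease that cuts the invariant chain, went from 963 and 1415 to a median of 25785 in the same window (4.49, adjusted p = 4.4e-17). Lgmn, an endosomal protease, rose by 3.60. Icam1, an adhesion molecule that steadies contact with T cells, lay under the floor in the controls (41.2 and 61.0) and had a median of 473 at 12 h to 2 d. These 4 genes rose in each of the 6 windows. The step at 16 d was shared by part of the list, in which 7 of 23 fell from 12 to 14 d to 16 to 20 d, against 7.88% of all probe sets. It was not particular to this pathway. Of the macrophage genes 17 of 21 fell (median -1.34 log2, against -0.75 for the 5 genes). Of the class I presentation genes 7 of 14 fell, and of genes that respond to interferon gamma 6 of 18. Of the B and plasma cell genes 4 of 20 fell and 1 rose, and of the dendritic cell genes 2 of 15 fell.

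The remaining class II chains and the regulators moved less. H2-DMb1, the partner chain of H2-DMa, rose in 4 windows, with a largest change of 1.29, from 428 and 525 to a median of 1191 at 11 to 16 d. H2-DMb2, H2-Oa, H2-Ob, H2-Eb2 and H2-Ea, the alpha chain that pairs with H2-Eb1, passed in none of the 6. H2-Ea lay at 31.6 and 39.3 in the controls and at 12.4 to 155 afterwards, so that most of its values lay under the floor. Ciita, the coactivator that class II genes depend on, stood at 334 and 381 in the controls and 281 to 796 after injection, and its changes of 0.16 to 0.49 passed in no window. Of the subunits of the Y box factor NF-Y, Nfya rose in 5 windows, by up to 1.66, and Nfyb and Nfyc fell in 5, by up to 1.33 and 0.49. Ifng, the cytokine that induces the pathway, lay under the floor in the controls and had a median of 11.8 over the 52 arrays after injection, and passed in no window. Of the costimulators, Cd86 rose in 3 windows and Cd80 in 1, and Cd40 in none.

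The course of the 5 genes was also matched against all other genes, as Pearson's r over the 27 group means of log2 intensity with the mean centred course of the 5. These points share the arrays and the time order, so r is given as a description. Among the 5, r lay between 0.82 and 0.96 for pairs without H2-DMa, and between 0.59 and 0.75 for pairs with it. The 10 most similar genes were Mmp14 (r = 0.911), Postn (0.910), Ctsk (0.907), Meg3 (0.902), Mfap2 (0.896), Igfbp4 (0.892), Col6a3 (0.892), Col5a1 (0.889), Col5a2 (0.888) and Dkk3 (0.886). Several are known parts or processors of extracellular matrix: Col6a3, Col5a1 and Col5a2 are collagen chains, Postn encodes periostin, Mfap2 a microfibril protein, Mmp14 a matrix metalloproteinase and Ctsk cathepsin K. Mmp14 stood at 1731 ± 110 in the controls (n = 2) and at 6599 ± 1496 at 11 to 16 d (n = 10), and Postn at 1106 ± 775 and 19390 ± 5200. Without the 12 h group 7 of these 10 stayed among the 10 most similar, led by Postn (0.926). The others were then Galnt10 (0.906), Mmp12 (0.9045) and Dnm1 (0.901). None of the listed macrophage genes was among the 10 in either case, but Mmp12, which encodes macrophage elastase, is not on that list.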

How the data were processed

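Intensity values were used as deposited by the authors, and the software that made them is not given in the sources used here. Every array's trimmed mean matched a common value (800.5 on Av2, 600.3 on A), so no scaling was added. As floor served, on Av2, the 20th percentile of the median array (64.7) and, on A, 2 times the root mean square of values below 0 (646.8). Probe sets above it on at least 2 arrays were tested, 11997 and 4742. The manufacturer's 66 control probe sets were not tested. Gene names came from GEO's platform annotation, in which 10833 probe sets of Av2 had 1 symbol, 396 several and 1193 none.

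limma 3.58.1 in R 4.3.3 was fitted with a mean per group, and windows were equally weighted means of their groups. P-values were adjusted by Benjamini-Hochberg over all probe sets, with 0.05 as threshold. Exact tests ran in Python 3.11.15. Methods were tested on simulated data. The number of arrays limits the precision. Named were the 5 genes, the 4 genes of each list with the largest passed changes in their largest window, the 10 most similar genes and the 10 largest 12 h differences. Further genes of the class II pathway and single markers were named after their values were seen. The members, lists, windows and tests were chosen with earlier results of these data known. Alternatives covered normalization, floor, filter, variance model, baseline, probe sets, arrays left out and a block by code number. On Av2 the code numbers 1 and 2 recur over the times. That block therefore does not link the 2 arrays of a pair with a shared code number.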

Additional observations from a re-analysis of the deposited data

How the results depend on the processing

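All 5 genes passed over the time course on the later array in each alternative except H2-DMa with the mean of its probe sets. Of 925 values of single genes under alternative settings 868 kept their direction and side of the threshold, as did 3756 of 3870 with 1 array left out. With 30 and 40 d in place of the controls, the 12 h to 2 d changes of H2-Aa (-0.94), H2-Eb1 (-0.52) and Cd74 (-0.62) turned, and that of H2-DMa turned without the arrays low in b-actin 3' (-0.75). The causes of the changes listed here were not tested. Every window against controls rests on the same 2 control arrays.

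Counts of the 5 genes moved as follows. At 12 h to 2 d, 0 rose with a required 2-fold change, 0 with 30 and 40 d as baseline, 0 without arrays low in b-actin 3' and 1 when probe sets of a gene were averaged, and leaving out 1 array gave 0 to 5. At 3 to 4.5 d, 2 rose with a required 2-fold change and 2 with 30 and 40 d as baseline. At 20 to 40 d, 0 rose with a required 2-fold change and 2 without arrays low in Gapdh 3', and leaving out 1 array gave 1 to 5. H2-DMa did not pass there when its probe sets were averaged (0.997). From 12 h to 2 d to 3 to 4.5 d leaving out 1 array gave 3 to 5. From 3 to 4.5 d to 5 to 7.5 d, 4 rose without arrays low in b-actin 3'. From 12 to 14 d to 16 to 20 d, 1 fell with the code number as a replicate block, 5 without 12 h, 4 without arrays low in b-actin 3' and 0 without arrays low in Gapdh 3', and leaving out 1 array gave 1 to 5. The block also took H2-DMa from the 5 that rose to 3 to 4.5 d, leaving 4, and changed no other count of the 5. On the earlier version, leaving out 1 array gave 1 to 5 genes over the time course, 0 to 4 at 12 h, 0 to 3 at 2 d, 1 to 5 at 4 d and 0 to 4 at 10 d, and the halved floor gave 1 at 2 d. Of the pair tests 14 passed after quantile normalization.

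Counts of all probe sets moved too. A required 2-fold change left 920, 1244, 748, 493, 266 and 11 in the 6 windows, from 4348, 4886, 4211, 3684, 2900 and 855. Without arrays low in b-actin 3' there were 1309 at 12 h to 2 d, 667 (from 293) at the step to 8 to 10 d and 1217 (from 783) at the step to 11 to 16 d. Without arrays low in Gapdh 3' there were 463 at 20 to 40 d, 175, 331 and 1319 (from 2342) at the steps to 8 to 10 d, 11 to 16 d and 20 to 40 d, and 626 (from 1510) at 16 to 20 d. Without 12 h the step to 8 to 10 d had 581. Leaving out 1 array gave 412 to 1131 at 20 to 40 d, 1657 to 3151 at 11 to 16 d, 2438 to 3853 at 8 to 10 d and 183 to 581 at the step to 8 to 10 d, and on the earlier version 423 to 2109 at 12 h, 1361 to 2361 at 1 d, 1434 to 2510 at 4 d and 500 to 1766 at 10 d.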

Other observations

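Genes of class I presentation, which displays peptides made inside the cell to killer T cells, were mostly higher already at 12 h to 2 d. Of 14 tested, 11, 11, 10, 10, 9 and 4 rose in the 6 windows, when 17.7%, 22.2%, 19%, 16.9%, 13.9% and 5.01% of all probe sets rose, and none fell in any. H2-K1, a class I heavy chain, stood at 4984 and 6508 in the controls and at a median of 13884 at 12 h to 2 d and 17345 at 3 to 4.5 d, with log2 changes of 1.27 and 1.58. H2-D1, another heavy chain, rose by 1.28 and 1.60 in the same windows. Psmb9, a subunit of the immunoproteasome, went from 61.8 and 80.3, of which the lower lay under the floor, to a median of 637 at 3 to 4.5 d (log2 change 3.21). Tap1, a subunit of the peptide transporter, rose by 1.53 at 12 h to 2 d and by 0.93 at 20 to 40 d. The score of the class I genes was 1.17 to 1.59 on the arrays of 1 and 2 d, where that of the 5 class II genes was 0.65 to 1.28. These arrays were all low in the b-actin ratio, and the part of this in the scores was not tested. The difference between the courses was not tested.

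Among genes that respond to interferon gamma, 8, 8, 9, 9, 8 and 4 of 18 rose in the 6 windows, against the same shares, and 0, 2, 2, 2, 2 and 2 fell, when 18.5%, 18.5%, 16.1%, 13.8%, 10.2% and 2.12% of all probe sets fell. In 4 of these windows the share that fell was below that of all probe sets. Ifi47 and Irgm2, interferon-induced GTPases, rose by 3.08 and 1.94 at 3 to 4.5 d, and Gbp3, a guanylate-binding protein, by 1.96 at 11 to 16 d. The genes that fell were the kinases Jak1 (by 0.58 at 3 to 4.5 d) and Jak2 (by 1.05). On 9 d replicate 1, the array with the highest H2-Aa, H2-Ab1 and H2-Eb1, the class I score (1.63) and the macrophage score (3.27) were also the highest from 5 d on.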
